A study of Homo sapiens with 6 samples.

Results

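The 9 genes described here encode the human Notch receptors (NOTCH1, NOTCH2, NOTCH3 and NOTCH4) and their canonical ligands (JAG1, JAG2, DLL1, DLL3 and DLL4). They were taken by gene symbol from a table of 38167 genes, without regard to their values, and all 9 were found. The table counted RNA in small extracellular vesicles shed by spheroids of Cal27, a widely used cell line from a squamous carcinoma of the tongue. There were 6 vesicle libraries in 2 groups of 3, stiff and soft, and the spheroids of both groups were embedded in Matrigel, which is a basement membrane extract that sets to a gel, with the labels giving day 14 for each library. The stiff group had Matrigel at 12 mg/mL and the soft group at 3 mg/mL. Vesicles were isolated from spent medium with insulator-based dielectrophoresis, a way to hold particles by electric field gradients around insulating obstacles. The labels call the libraries biological replicates without saying whether they came from separate cultures, so p-values measure the spread between these libraries. The gel differs in protein content as well as in stiffness, and these cannot be told apart. A single cell line was used.

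Notch receptors are membrane proteins that receive signals from neighbouring cells. A ligand on such a cell pulls on the receptor, the protease ADAM10 and then the gamma-secretase complex cut it, and the freed intracellular part enters the nucleus, binds the DNA-binding protein RBPJ and Mastermind co-activators and turns on targets of the HES and HEY families. In stratified squamous epithelium NOTCH1 promotes the exit of basal cells into differentiation, and it is often mutated in squamous carcinoma of the head and neck. NOTCH4 and DLL4 are best known from endothelium, and DLL3, which acts inside its own cell as an inhibitor, from somite formation and neuroendocrine tumours.

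The stretch that lets a cleaved receptor bind RBPJ lies in all 4 receptor transcripts, and it is shown because their base composition, taken up again beside the levels, differs. Each line holds 90 bases of the coding sequence of the longest coding transcript in GENCODE release 29 (GRCh38), from the end of the membrane-spanning part onward, and the capitals mark the codons of the tryptophan motif that contacts RBPJ.
NOTCH1: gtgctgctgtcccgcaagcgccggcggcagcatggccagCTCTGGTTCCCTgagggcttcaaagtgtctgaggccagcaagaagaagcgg
NOTCH2: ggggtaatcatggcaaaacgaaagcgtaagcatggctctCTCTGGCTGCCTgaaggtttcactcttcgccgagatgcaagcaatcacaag
NOTCH3: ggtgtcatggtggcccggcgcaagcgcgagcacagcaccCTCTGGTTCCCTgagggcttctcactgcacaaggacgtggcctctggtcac
NOTCH4: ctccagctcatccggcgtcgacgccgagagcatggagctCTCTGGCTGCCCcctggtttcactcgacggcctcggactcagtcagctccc
G and C made up 64.4% of this stretch in NOTCH1, 51.1% in NOTCH2, 65.6% in NOTCH3 and 66.7% in NOTCH4. Base by base, without gaps, NOTCH2 and NOTCH3 were the pair with the most identical positions (52 of 90) and NOTCH3 and NOTCH4 the pair with the fewest (38 of 90). Over the whole transcripts GC content was 62.9%, 49.4%, 63.1% and 61.7% in the same order of receptors.

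NOTCH2 shares its first exons with the human-specific NOTCH2NL genes, and the beginning of the coding sequence is shown because reads from it can fit either gene. The capitals mark the bases that differ over these 120 bases, in the longest coding transcript of NOTCH2 and its best match in NOTCH2NLA, both on chromosome 1.
NOTCH2: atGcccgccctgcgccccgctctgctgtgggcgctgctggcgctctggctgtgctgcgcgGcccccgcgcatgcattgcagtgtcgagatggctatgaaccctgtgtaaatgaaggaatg
NOTCH2NLA: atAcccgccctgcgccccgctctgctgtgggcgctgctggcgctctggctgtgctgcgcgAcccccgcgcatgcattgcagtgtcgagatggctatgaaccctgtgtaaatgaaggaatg
They differed at 2 of 120 bases. Of 11329 windows of 61 bases, the length of 1 read, in the NOTCH2 transcript of 11389 bases, 367 (3.24%) occurred without mismatch in a NOTCH2NLA transcript, and all of these lay within the first 971 bases. The rest of the transcript held no such window. Only NOTCH2NLA was compared, so windows shared solely with other NOTCH2NL genes are not in this count. How the authors counted reads that fit several places was not given in the sources used here.

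All 9 Notch receptor and ligand genes had counts in every vesicle library, and none of them differed between the stiff and soft groups past the threshold. Each library had counts for 97.5% to 97.9% of all genes in the table, so being counted is not particular to these 9. The threshold was an adjusted p under 0.05 in edgeR's quasi-likelihood test with Benjamini-Hochberg adjustment over all genes tested. All 9 passed the filter on low counts. The test called 0 of 9, where it called 0.451% of 31074 genes, DESeq2 without its filter on mean count and limma-voom also called 0 of 9, and 3 of 9 had an unadjusted edgeR p under 0.05, against 9.51% of all genes. The 3 were NOTCH1, JAG2 and DLL3, each with a log2 fold change above 0. A count of 0 of 9 is near the share of all genes called. The median log2 fold change of the 9 was 0.15, against −0.0048 for all genes tested and 0.017 for the 18732 protein-coding genes tested. Of the 9, 6 were above 0, as were 15264 of the 31074 genes and 10036 of the protein-coding ones. With any 1 library left out the median of the 9 ranged from 0.06 (without stiff replicate 1) to 0.18 (without stiff replicate 2), and it was 0.10 without soft replicate 1. Libraries held 2697502 to 2977837 counts in stiff and 2445498 to 2545385 in soft. The number of vesicles and the RNA in each vesicle cannot be told apart in these counts.

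The direction of the family as a whole turned with the scale. Together the 9 genes took 0.0776% ± 0.00258 of all counts in stiff and 0.0856% ± 0.00271 in soft libraries (SD, n = 3 each), which is lower in stiff. As CPM, which are counts relative to library size, scaled by TMM, a factor that centres the bulk of genes between libraries, they summed to 862 ± 40.8 CPM in stiff and 790 ± 5.73 CPM in soft, which is higher in stiff. TMM factors were 0.893 to 0.929 in stiff and 1.06 to 1.13 in soft libraries. With library totals as the scale, the median over all genes went to −0.27. That scale gave 31 higher and 4163 lower calls in place of 89 and 51, and called 2 of the 9 lower, NOTCH3 (log2 fold change −0.31, edgeR adjusted p = 0.0197) and NOTCH4 (−0.36, adjusted p = 0.0282), both close to that shift. The values below are CPM scaled by TMM and so relative to the middle of all genes.

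**Figure D1:**
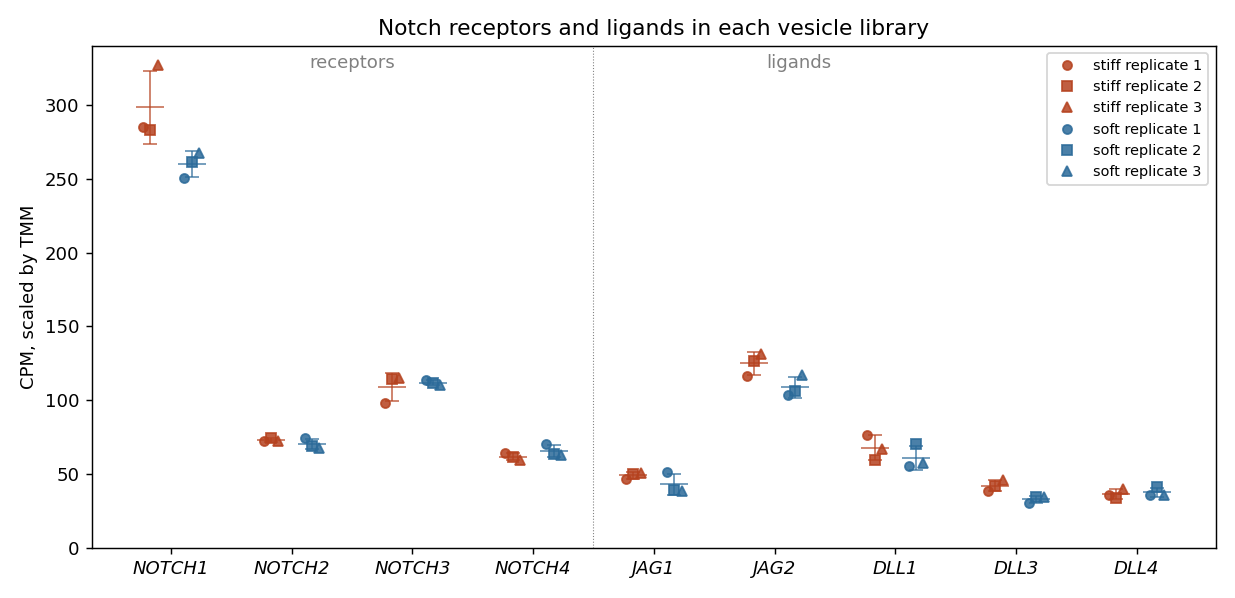
CPM scaled by TMM (vertical axis) of each receptor and ligand gene in every library. Points are libraries, with stiff left of soft, and crosses with bars are the mean and SD of 3 libraries. NOTCH1 stands far above the others, at 283 to 327 CPM in stiff and 251 to 268 CPM in soft libraries, and most pairs of groups overlap.

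NOTCH1 was the member with the most counts and had the smallest adjusted p of the 9, without a call. It encodes the receptor with the best known role in keratinocyte differentiation and lies on chromosome 9 (136494433 to 136545786, minus strand, GRCh38). It had 693, 754 and 860 counts in stiff replicates 1, 2 and 3 and 683, 721 and 710 in soft replicates 1, 2 and 3. Scaled by TMM these were 285, 283 and 327 CPM in stiff and 251, 261 and 268 CPM in soft. The groups did not overlap, which was also true of 14.1% of all genes tested, and stiff replicate 3 stood apart from the other stiff libraries. Means were 298 ± 24.9 CPM in stiff and 259.8 ± 8.67 CPM in soft (SD, n = 3 each), a log2 fold change of 0.20 ± 0.071 (SE; edgeR adjusted p = 0.232) with a 95% interval of 0.06 to 0.34. On the linear scale that interval runs from 1.04 to 1.27-fold. Leaving out stiff replicate 3 gave 0.13, and correction for GC content gave 0.12 (adjusted p = 0.555). Within groups the counts of NOTCH1 spread more than counting error gives, with a chi-square per degree of freedom of 3.09, where the other 8 members had 0.259 to 2.78. Where libraries differ beyond counting error this ratio can grow with the count, and NOTCH1 had the most counts of the 9. Among the others the ratio did not follow the counts, with 1.23 for JAG2 (282 to 346 counts) and 2.78 for DLL1 (150 to 193). The cause of the spread of NOTCH1 was not tested.

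The other receptors had groups that overlapped. NOTCH2 (chromosome 1, 119911553 to 120069626, minus strand), a receptor expressed in many tissues, had 176, 198 and 190 counts in stiff and 202, 190 and 179 in soft libraries. That is 73.0 ± 1.16 CPM in stiff and 70.1 ± 3.49 CPM in soft (SD, n = 3 each), and the groups overlapped (log2 fold change 0.06 ± 0.11 SE, edgeR adjusted p = 0.921). The NOTCH2NL copies together had 342, 365 and 410 counts in stiff and 384, 418 and 384 in soft libraries, more than NOTCH2 itself. Summing them with NOTCH2 gave a log2 fold change of 0.01 (95% interval −0.13 to 0.16). NOTCH3 (chromosome 19, 15159038 to 15200981, minus strand), the receptor best known from vascular smooth muscle, had 238, 304 and 302 counts in stiff and 310, 308 and 293 in soft libraries, with stiff replicate 1 lowest. The groups overlapped in CPM (log2 fold change −0.04 ± 0.090 SE, edgeR adjusted p = 0.946), and without stiff replicate 1 the value was 0.03.

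NOTCH4, the endothelial receptor, lies on chromosome 6 (32194843 to 32224067, minus strand) beside GPSM3, with which it shares 98 exonic bases on the same strand. It had 156, 163 and 157 counts in stiff and 191, 176 and 167 in soft libraries. Its 61.7 ± 2.26 CPM in stiff and 65.6 ± 3.89 CPM in soft (SD, n = 3 each) overlapped, with a log2 fold change of −0.09 ± 0.11 (SE; edgeR adjusted p = 0.870). The 95% intervals of NOTCH2, NOTCH3 and NOTCH4 ran from 0.899 to 1.20-fold, 0.862 to 1.10-fold and 0.804 to 1.10-fold. Folds outside these ranges lie outside the intervals, which are not adjusted for the number of genes.

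Among the ligands DLL3 had the highest fold change. It lies on chromosome 19 (39498895 to 39508481, plus strand) and had 94, 112 and 120 counts in stiff and 82, 94 and 91 in soft libraries. In CPM the stiff libraries, at 38.6, 42.0 and 45.6, were all above the soft ones, at 30.1, 34.0 and 34.3. The share of genes tested whose stiff libraries all lay above the soft ones was 7.38%, and NOTCH1 and DLL3 were the members among them. No member had all its stiff libraries below the soft ones, where 6.76% of genes did. The log2 fold change of DLL3 was 0.36 ± 0.14 (SE; edgeR adjusted p = 0.337), with a 95% interval of 1.05 to 1.57-fold, and it was 0.25 after correction for GC content (adjusted p = 0.629). It ranged from 0.30 to 0.42 with any 1 library left out.

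JAG2, a Jagged-family ligand that lies on chromosome 14 (105140981 to 105168824, minus strand), was the ligand with the most counts. It had 283, 337 and 346 counts in stiff and 282, 293 and 310 in soft libraries. Its 125 ± 7.74 CPM in stiff and 109 ± 7.12 CPM in soft (SD, n = 3 each) overlapped at stiff replicate 1 and soft replicate 3, with 116 and 117 CPM. The difference was 0.20 ± 0.088 on the log2 scale (SE; edgeR adjusted p = 0.421), and 0.10 after correction for GC content.

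JAG1, the other Jagged ligand, lies on chromosome 20 (10637684 to 10673999, minus strand) and had 113, 133 and 133 counts in stiff and 140, 107 and 102 in soft libraries. Soft replicate 1 was the highest of all 6 in CPM, at 51.4, and the other soft libraries were the lowest, at 38.8 and 38.5, with stiff libraries between them at 46.5 to 50.6. The resulting difference was 0.19 ± 0.13 on the log2 scale (SE; edgeR adjusted p = 0.688) with all libraries and 0.35 without soft replicate 1, the highest of a range that began at 0.13 without soft replicate 2 or 3.

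The Delta-like ligands DLL1 and DLL4 overlapped between the groups. DLL1 (chromosome 6, 170282206 to 170306565, minus strand), a ligand with roles in somite and neural development, had 186, 159 and 176 counts in stiff and 150, 193 and 152 in soft libraries. Its highest and lowest CPM were 76.5 in stiff replicate 1 and 55.02 in soft replicate 1, for a log2 fold change of 0.15 ± 0.11 (SE; edgeR adjusted p = 0.730). It was 0.06 without stiff replicate 1, 0.09 without soft replicate 1, 0.24 without stiff replicate 2 and 0.27 without soft replicate 2. DLL4 (chromosome 15, 40929333 to 40939073, plus strand), the ligand of endothelial tip cells, had 86, 89 and 105 counts in stiff and 97, 113 and 95 in soft libraries. The difference was −0.05 ± 0.15 on the log2 scale (SE; edgeR adjusted p = 0.958), and it turned to 0.01 without stiff replicate 2 and 0.02 without soft replicate 2. The interval of DLL4 reached from 0.793 to 1.18-fold.

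**Figure D2:**
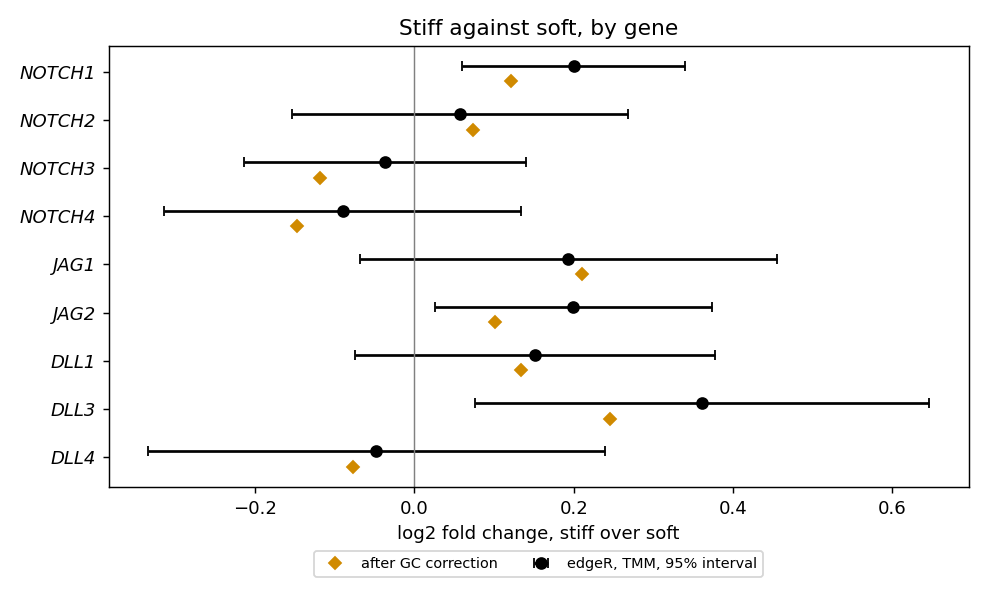
Log2 fold change of stiff over soft (horizontal axis) for each gene. Black points with bars are edgeR estimates with 95% intervals from 3 libraries a group, and diamonds are estimates after correction for GC content. The intervals of NOTCH1, JAG2 and DLL3 lie above 0 before adjustment for the 31074 genes tested, and after GC correction their estimates are 0.12, 0.10 and 0.25.

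The stiff to soft ratio of genes in general moved with GC content, which is given here because 7 of the 9 members have over 55% GC. Among protein-coding genes tested, the median log2 fold change was 0.00080 for 3171 genes of 45 to 50% GC, 0.037 for 3059 genes of 55 to 60% and 0.077 for 2206 genes of 60 to 65%. NOTCH2 and JAG1 fall in the lowest of these ranges, DLL1 and DLL4 in the middle range, and NOTCH1, NOTCH3, NOTCH4, JAG2 and DLL3 in the highest. Across the 9 members, log2 fold change against GC content had a Pearson's r of 0.10 and a Spearman's rho of 0.42. Across the protein-coding genes tested these were 0.21 and 0.22. NOTCH3 and NOTCH4, in the highest range, were at −0.04 and −0.09, and JAG1, in the lowest, was at 0.19. Whether GC content accounts for the values of the members was not tested. With the correction the median of the 9 was 0.10, in place of 0.15, and 0 of 9 were called. Among the 23080 genes with a GC value, the corrected fit called 67, 35 higher and 32 lower, and the fit without correction had called 114 of these genes, 86 higher and 28 lower. After correction DLL3 had the highest of the 9 values, 0.25 (adjusted p = 0.629), and NOTCH4 the lowest, −0.15 (adjusted p = 0.745), and the difference between them was not tested.

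Levels between genes were compared as CPM per kb of the longest coding transcript. NOTCH1 was highest, with 32.1 in stiff and 27.9 CPM per kb in soft libraries, apart from the next gene in every library. JAG2, at 21.4 in stiff and 18.6 CPM per kb in soft, and DLL1, at 21.3 in stiff and 19.1 CPM per kb in soft, overlapped each other. DLL3 followed at 18.1 in stiff and 14.1 CPM per kb in soft, overlapping NOTCH3 in soft and not in stiff libraries. NOTCH3 had 12.6 and 12.9 CPM per kb in stiff and soft, DLL4 10.6 and 10.9, and NOTCH4 9.14 and 9.72. Over all 6 libraries each gene between JAG2 and NOTCH4 overlapped its neighbour in this order, and NOTCH4 was apart from JAG1 below it. JAG1, at 8.25 in stiff and 7.21 CPM per kb in soft, and NOTCH2, at 6.41 in stiff and 6.16 CPM per kb in soft, were the lowest members, and they overlapped in soft and not in stiff libraries. So the order of members was the same in both groups but for JAG2 and DLL1, which changed places.

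Against other protein-coding genes the members ranged widely. In stiff libraries NOTCH1 was at percentile 97.5 of 19277 protein-coding genes, JAG2 and DLL1 were both at 90.9 and NOTCH2 was the lowest at 33.7. In soft libraries they were at 96.7, 88.3, 89.1 and 31.1 in the same order. Level per kb rose with GC content across protein-coding genes (across genes, Spearman's rho 0.68 in stiff and 0.66 in soft, n = 19277 genes that share libraries), and across the 9 members rho was 0.65 in stiff and 0.57 in soft. Set beside other coding genes of 60 to 65% GC, whose mean level over the 6 libraries had a median of 16.4 and percentiles 10 and 90 of 10.0 and 26.7 CPM per kb, NOTCH1 at 29.99 was above that span and NOTCH4 at 9.43 below it. JAG2 at 20.0, DLL3 at 16.1 and NOTCH3 at 12.7 were inside it. DLL1 at 20.2 CPM per kb was near the upper end for 55 to 60% GC (percentile 88.6 of 3104 genes), and DLL4 at 10.7 was at percentile 40.5 there. NOTCH2 and JAG1 were at percentiles 36.6 and 56.2 of 3304 genes of 45 to 50% GC.

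**Figure D3:**
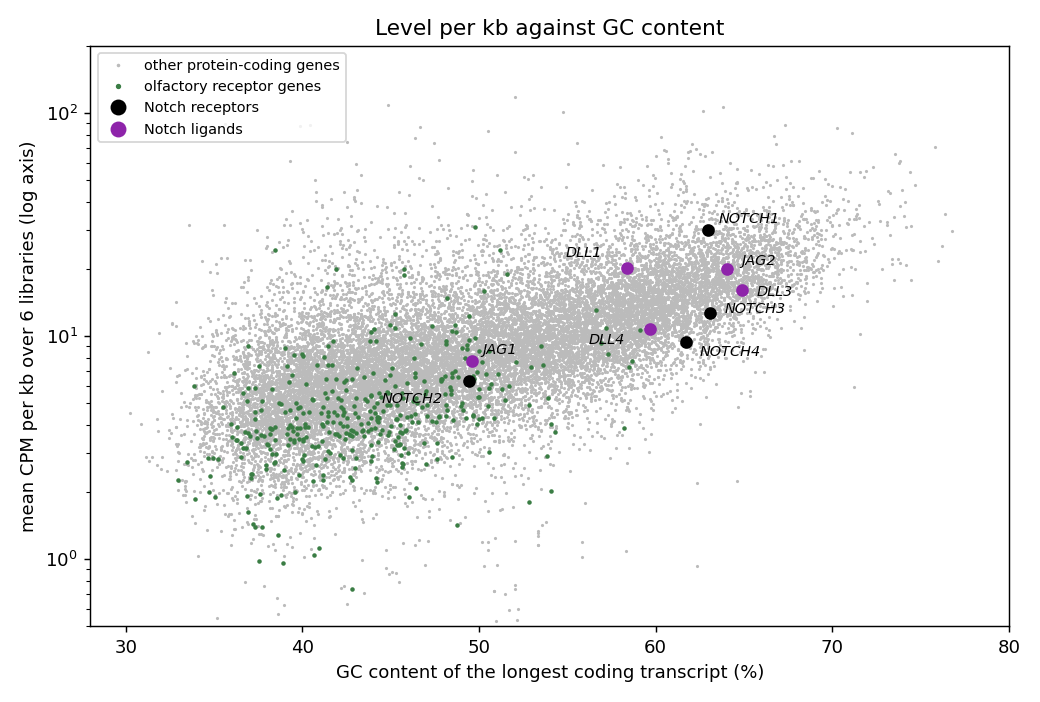
Mean CPM per kb over the 6 libraries (vertical log axis) against GC content of the longest coding transcript (horizontal axis, percent), with 1 point per gene. Grey points are protein-coding genes, green points olfactory receptor genes, black circles Notch receptors and purple circles Notch ligands. Members follow the slope of the other genes, with NOTCH1 at 29.99 CPM per kb high and NOTCH4 at 9.43 low for their GC content.

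Genes with no known role in squamous cells were also counted at such levels. The 381 olfactory receptor genes had a median of 4.32 CPM per kb in stiff and 4.40 in soft, at a median GC content of 43.3%. The 103 of them with 45 to 50% GC had a median of 5.05 CPM per kb in stiff and 4.96 in soft, with percentiles 10 and 90 of 2.81 and 10.4 in stiff and 3.06 and 10.4 in soft, a span that holds both NOTCH2 and JAG1. Markers of the labelled squamous cell type and of other cell types were measured in the same way. Each library had counts for 97.5% to 97.9% of all genes, so being counted could not tell cell types apart. All 11 squamous markers were counted, with a median of 10.6 CPM per kb in stiff and 10.4 in soft, and their sums per library were 125 to 135 in stiff and 115 to 117 in soft. Endothelial markers (9 genes) had medians of 7.89 in stiff and 8.29 in soft, and summed to 79.6 to 84.1 in stiff and 75.7 to 79.1 in soft. Neuroendocrine markers (5 genes) had 14.7 and 12.9, leukocyte markers (8) 7.89 and 7.50 and fibroblast markers (8) 6.34 and 5.66 CPM per kb in stiff and soft. The neuroendocrine median was above the squamous one in both groups, at a median GC content of 58.9% against 55.8%. No marker of these lists was at 0 in either group, and PTPRC, the pan-leukocyte CD45 gene, stood at 5.16 in stiff and 5.94 CPM per kb in soft. NOTCH4 and DLL4 were within the 3.80 to 21.3 CPM per kb of single endothelial markers in stiff libraries, and DLL3 was within the 6.15 to 18.8 of single neuroendocrine markers there. These spans are broad, as percentiles 10 and 90 of all protein-coding genes in stiff were 3.72 and 20.6 CPM per kb. NOTCH2, NOTCH3 and JAG1 were within both spans too, so lying inside them does not link a member to a cell type. The source of such counts was not tested.

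The other genes of the pathway gave no call either. Of 63 genes in 5 role lists, all 63 were tested and edgeR called 0, DESeq2 without its filter 0 and limma-voom 0, where edgeR called 0.451% of all genes. An unadjusted edgeR p under 0.05 was seen in 5 of 63, against 9.51% of all genes. The stiff libraries were all above the soft ones in 10 of 63 and all below them in 3, against 7.38% and 6.76% of all genes. Among the 18732 protein-coding genes tested, 1770 had all stiff libraries above the soft ones and 1092 had all below. The median log2 fold change of the 63 was 0.06, against 0.017 for the protein-coding genes. Of the 63, 39 were above 0, as were 10036 of the protein-coding genes.

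Receptor maturation and cleavage genes (0 of 14 called) had a median log2 fold change of −0.05. The lowest value was that of ADAM17, a sheddase that can cut Notch when no ligand is bound, with 63, 84 and 70 counts in stiff and 105, 106 and 90 in soft libraries. The stiff libraries were all below the soft ones (log2 fold change −0.40 ± 0.16 SE, edgeR adjusted p = 0.313). PSENEN, a gamma-secretase subunit, had the next lowest at −0.26, with 17 to 19 counts in stiff and 17 to 27 in soft. RFNG, a Fringe glycosyltransferase that extends the sugars on Notch, was at the other end, with 47.3 ± 3.65 CPM in stiff and 37.8 ± 2.20 CPM in soft (SD, n = 3 each; log2 fold change 0.32, edgeR adjusted p = 0.381). APH1B, another gamma-secretase subunit, followed at 0.28. ADAM10, the protease of ligand-induced cleavage, stood at 42.1 ± 4.32 CPM in stiff and 49.0 ± 1.37 CPM in soft (log2 fold change −0.22, edgeR adjusted p = 0.625), a gene picked out after its values were seen.

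Ligand uptake genes, which drive the endocytosis that pulls on the receptor, had 0 of 6 called and a median of 0.12. EPN2, an epsin, had the highest fold change at 0.26, NEURL1B the next at 0.14, EPN1 had 0.09 and MIB1, the ubiquitin ligase of Notch ligands, the lowest at 0.02, each on the log2 scale. Inhibitors and turnover genes had 0 of 14 called and a median of −0.00031. NUMBL and DTX1 had 0.24 and 0.23, with stiff libraries all above the soft ones in both, while DTX3 and DTX3L had −0.19 and −0.14.

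The nuclear complex had 0 of 14 called and a median of 0.08. EP300, the acetyltransferase recruited by Mastermind, had 69.4 ± 9.89 CPM in stiff and 58.3 ± 2.90 CPM in soft (SD, n = 3 each; log2 fold change 0.25, edgeR adjusted p = 0.454). RBPJL, a relative of RBPJ known from pancreatic acinar cells, had 0.23 and the co-activator MAML2 −0.16, and the co-repressor SPEN had −0.15 with all stiff libraries below the soft ones. Per kb, RBPJL was counted at 31.4 in stiff and 26.8 CPM per kb in soft, against 4.49 in stiff and 4.37 CPM per kb in soft for RBPJ itself, whose transcript is 38.0% GC where that of RBPJL is 60.9%.

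Target genes had 0 of 15 called and a median of 0.08, and the groups overlapped in all 15, where 14.1% of all genes had groups that did not overlap. HES1, the repressor that Notch induces in most tissues, had 62, 63 and 53 counts in stiff and 63, 86 and 69 in soft libraries (log2 fold change −0.22 ± 0.18 SE, edgeR adjusted p = 0.757). CDKN1A, the p21 cell cycle inhibitor, had −0.21. KRT10, a keratin of the suprabasal layers, had the highest value at 0.29, and its groups overlapped.

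**Figure D4:**
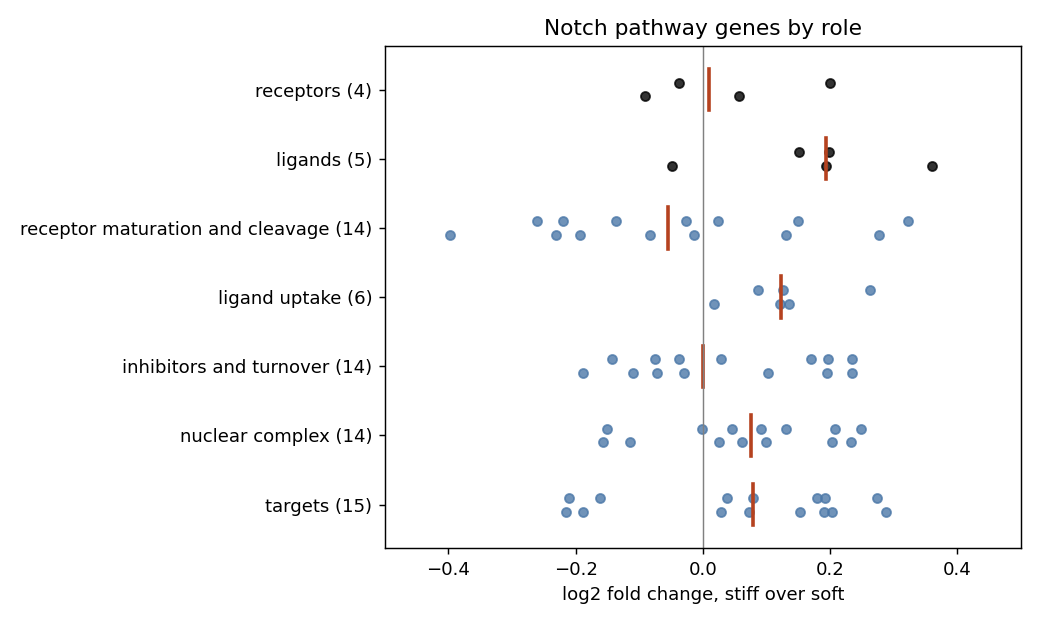
Log2 fold change of stiff over soft (horizontal axis) for the receptors, the ligands and 5 lists of other Notch pathway genes (rows, with the number of genes). Points are genes and red bars are the median of each row. All rows but ligand uptake have genes on both sides of 0, and ADAM17 at −0.40 and DLL3 at 0.36 are the outermost points.

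The genes whose pattern over the 6 libraries was most like that of NOTCH1 were LOC105379335 (Pearson's r 0.993, mean 7.28 CPM), BEGAIN (0.993, 115 CPM) and CCDC187 (0.992, 208 CPM), as a description over 6 libraries in 2 groups. Among the 31074 genes tested, 85 had an r over 0.95 with NOTCH1. CCDC187 lies on the same chromosome, 9, at 136249971 to 136306901. CCDC187 and BEGAIN, on chromosome 14, have 65.2% and 65.9% GC. EGFL7, a secreted endothelial protein gene beside NOTCH1, had −0.11 on the log2 scale, at 58.6 CPM per kb in stiff and 63.2 in soft and 68.1% GC. NALT1, the antisense long non-coding RNA gene next to NOTCH1, had 28 to 33 counts in stiff and 29 to 42 in soft libraries.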

How the data were processed

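RNA of small extracellular vesicles from Cal27 spheroids was sequenced in pairs of 61 bases from total RNA with a directional kit, per the labels' protocols. The authors deposited raw counts of reads per gene symbol, without normalization. Trim Galore 0.4.2, cutadapt 1.9.1, FastQC 0.11.7, STAR 2.6.1e, featureCounts 1.6.2 and DESeq2 1.26.0 with hg38 are named, without roles, per the submitters' processing notes. The gene annotation, strand setting and treatment of reads with several positions were not given there. Replicate numbers are those of the titles, since 2 stiff libraries carry the same number in their descriptions.

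Stiff was compared with soft in edgeR 4.0.16 (R 4.3.3) with filterByExpr, which removed 7093 genes and left 31074, TMM factors, robust quasi-likelihood fits and group as the single term. Standard errors and 95% intervals came from the F statistic. Alternatives used DESeq2 1.42.0 and limma 3.58.1. Lengths, GC content and coordinates came from GENCODE release 29, which held 27214 (71.3%) of the symbols. GC correction used a smooth of log counts on GC content in each library as an offset. The fit was also run on simulated counts with planted changes in some genes and no shift of GC content or scale between groups. That run does not bear on the choice of scale. Reads carried no molecular identifiers, so PCR copies count as separate reads. The members, the gene lists and the rule for named genes (all members, all called pathway genes, and the 2 highest and 2 lowest of each role list) were chosen with earlier results of these data known. The value of 1 gene that this rule names is not reported here.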

Additional observations from a re-analysis of the deposited data

How the results depend on the processing

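The 9 members were recomputed under 17 alternatives each, and NOTCH2 also summed with its copies, which gave 154 values. Of these 139 kept direction and side of the threshold, 5 kept direction with no adjusted p (DESeq2 with its filter), 8 changed direction and 2 passed the threshold. Under library totals alone the log2 fold changes were −0.070 for NOTCH1, −0.21 for NOTCH2, −0.077 for JAG1, −0.069 for JAG2 and −0.12 for DLL1, all turned, and 2 members and 12 other pathway genes were called, all lower, with 4194 calls over all genes. That scaling shifts every gene, as its median of −0.27 shows. The other changes of direction came from leaving out 1 library, for NOTCH3 (−0.075 to 0.034, the last without stiff replicate 1) and DLL4 (−0.12 to 0.023, with 0.010 without stiff replicate 2 and 0.023 without soft replicate 2). Calls over all genes numbered 67 with DESeq2 and its filter, which left an adjusted p for 4 of the 9 members, 43 with DESeq2 without that filter, 91 with limma-voom, 67 with GC correction, over the 23080 genes with a GC value, 114 of them called without it (35 higher and 32 lower with it), and 68 with GC correction and the replicate block, against 140 (89 higher and 51 lower). With 1 library left out they numbered 60 (without stiff replicate 2) to 136, and members called were 0 each time. The cause of these differences was not tested. The replicate block alone gave 173 calls over all genes, 0 of them members. The numbers were not taken as pairs. Deviations of libraries with the same number had r = 0.0024, 0.0036 and −0.0036 across genes, and those with different numbers −0.0080 to 0.0054. Counting error in genes with few counts brings such r near 0, so these values cannot exclude pairs. The ligands with the fewest counts were DLL3 (82 to 120 counts per library) and DLL4 (86 to 113), whose 95% intervals span 1.05 to 1.57-fold and 0.793 to 1.18-fold.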
